A study of Homo sapiens with 6 samples.

Results

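The genes described here were 10 transcription regulators of the early response of a cell to growth factors and stress, namely FOS, FOSB, FOSL1, FOSL2, JUN, JUNB, JUND, EGR1, IER2 and MYC. They were listed by name, with earlier results of these data known. Their rows in the deposited table are those whose Ensembl identifier carries one of these symbols. All 10 were found among the 59192 features of the table, and all 10 passed the filter on low values. RNA sequencing had compared the lines SW480-45 and SW480-NC, both derived from SW480, a human colorectal adenocarcinoma line. Both lines stably carry Cas9, introduced by a lentivirus with puromycin selection, and a lentiviral guide RNA vector with EGFP. The guide of SW480-45 targets HPSE, the gene of heparanase, an enzyme that cleaves heparan sulfate, while the guide of SW480-NC is a control. SW480-45 was taken as the line that the study names SW480-KD1, since the study describes no other sequenced knockdown line, and the sources used here do not say whether either line is a clone. Each line was sequenced in 3 libraries from independent experiments, with 33221323 to 39802365 reads counted in features per library.

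AP-1 is a dimer of basic leucine zipper proteins. JUN proteins pair with each other or with a FOS protein, whereas FOS proteins need a JUN partner, and the dimer binds the sequence TGACTCA or the related TGACGTCA. Many of its genes belong to the immediate early genes, which are transcribed within minutes of a stimulus from factors already present, largely through MAP kinases acting on SRF and its ternary complex factor partners at CArG boxes. EGR1 is a zinc finger factor of this class, IER2 is a nuclear protein induced with it, and MYC is a growth regulator that in colorectal cancer responds to Wnt signalling.

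As a check of the labels, HPSE was read in every library. It had 136, 172 and 146 normalized counts in SW480-45 replicates 1, 2 and 3 and 269.9, 295 and 246 in SW480-NC replicates 1, 2 and 3, which is a log2 fold change of -0.83 ± 0.14 (SE, n = 3 per line). The lines did not overlap, which was so for 23.4% of all features, and the adjusted p of limma was 0.0547. The study showed the knockdown as protein by western blot, which RNA counts do not measure. Of 8 colon epithelium markers 6 were measured, of which EPCAM, KRT8, KRT19, VIL1 and LGALS4 each reached 7576 normalized counts or more in every library and CDX2 stood between 19.0 and 40.3. Among 9 markers of immune, endothelial and stromal cells, 5 had no row of their own, COL1A2 was below the filter, PECAM1 and VWF did not exceed 30.6, and COL1A1 ranged from 198 to 359.

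The promoter of a member shows which regulators of the same network can be read from its letters. Of the 10 members, 8 were matched by symbol in a RefSeq table of promoters on GRCh38.p14, which spans 250 bases before to 50 bases after each start, and FOSL1 and MYC had no entry. Both strands were searched for TGACTCA, TGACGTCA, the variant TGACATCA, the MYC motif CACGTG, the EGR motif GCGTGGGCG and the CArG box. The windows below are the member promoters that held any of these motifs, together with the 4 AP-1 target genes tested further on that held TGACTCA, with each matched motif in capitals and each window written 5′ to 3′ on the strand of its gene.
EGR1, 2 CArG boxes, chr5:138465334-138465445, plus strand: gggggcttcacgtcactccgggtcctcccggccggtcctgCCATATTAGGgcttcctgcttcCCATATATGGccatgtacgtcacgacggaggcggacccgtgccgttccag
FOSL2, TGACTCA, chr2:28392851-28392879, plus strand: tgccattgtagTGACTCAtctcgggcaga
JUN, TGACATCA, chr1:58784096-58784125, minus strand: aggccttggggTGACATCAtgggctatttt
JUND, TGACGTCA, chr19:18281775-18281862, minus strand: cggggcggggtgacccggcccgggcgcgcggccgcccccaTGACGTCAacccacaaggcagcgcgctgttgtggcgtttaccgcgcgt
CXCL8, TGACTCA, chr4:73740392-73740478, plus strand: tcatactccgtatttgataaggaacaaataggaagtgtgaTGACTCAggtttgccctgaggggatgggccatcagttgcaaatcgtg
PLAUR, TGACTCA as its reverse complement, chr19:43670338-43670366, minus strand: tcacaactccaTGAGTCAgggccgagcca
EZR, TGACTCA, chr6:158818245-158818331, minus strand: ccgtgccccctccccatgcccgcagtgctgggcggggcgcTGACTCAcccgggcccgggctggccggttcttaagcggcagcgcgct
MT2A, TGACTCA, chr16:56608469-56608497, plus strand: ggagccgcaagTGACTCAgcgcggggcgt

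Counted from the RefSeq start, the CArG boxes of EGR1 began at positions -105 and -83, the motif of JUN at -67, that of JUND at -200 and that of FOSL2 at 5. GENCODE 29 holds transcripts that start further upstream for FOSL2, JUN, PLAUR and MT2A, so that the motif of these 4 genes lies within an annotated exon, and their windows were kept short. PLAUR also held GCGTGGGCG, at -90. FOS, FOSB, JUNB and IER2 held none of the 6 motifs in this window, and sites more than 250 bases upstream of the start were not searched. Among 27305 promoters of the same length, 1.29% held a CArG box, 4.92% TGACTCA, 1.98% TGACGTCA, 2.71% TGACATCA, 7.43% CACGTG and 0.784% GCGTGGGCG. A match describes the letters of the window and does not show binding.

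FOSL1 was lower and EGR1 higher in SW480-45 than in SW480-NC, so that these members moved in opposite directions, and none of the other 8 passed the test. The test was that of limma on log2(normalized count + 1) across 21703 features, adjusted over all of them. The 2 members called compare with 0.802% of all features called at an adjusted p under 0.05, of which 0.332% were higher and 0.47% lower in SW480-45. At a change of at least 2-fold with a limma p under 0.05 before adjustment, FOSL1 alone was called, against 2.42% of all features. The study states the same cutoffs for Cuffdiff with a false discovery rate correction, so these calls are not those of the study. Libraries of the lines did not overlap for the same 2 members, against 23.4% of all features. Of the 10 members 5 were higher and 5 lower, and their median log2 fold change was 0.05, beside -0.005 over all features tested. In bulk RNA, fewer cells expressing a gene and less RNA per cell cannot be told apart.

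**Figure D1:**
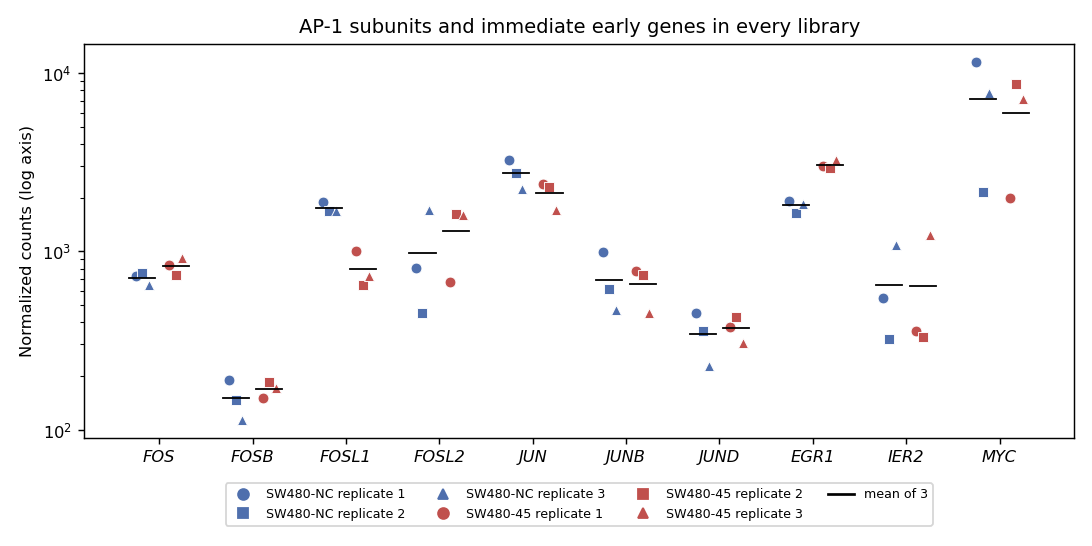
Normalized counts of the 10 members (y axis, log scale) in each of 6 libraries, with SW480-NC in blue, SW480-45 in red, the marker shape giving the replicate number and a line at the mean of 3. FOSL1 lies between 646 and 1004 in SW480-45 and between 1674 and 1881 in SW480-NC, EGR1 lies at or above 2922 in SW480-45 and at or below 1923 in SW480-NC, and MYC, IER2 and FOSL2 spread widely within both lines.

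FOSL1 encodes FRA-1, a FOS protein without the transactivation domain of FOS, known for its accumulation in invasive carcinoma cells with an active ERK cascade. Its gene lies at chr11:65892049-65900573 on the minus strand (GENCODE 29, GRCh38). FOSL1 had 1004, 646 and 728 normalized counts in SW480-45 replicates 1, 2 and 3 and 1881, 1674 and 1693 in SW480-NC replicates 1, 2 and 3. Every SW480-45 library was below every SW480-NC library, and replicate 1 of SW480-45 was the highest of its line. The means were 793 ± 188 and 1749 ± 114 (SD, n = 3), so that SW480-45 held 45.3% of the control level, a log2 fold change of -1.16 ± 0.16 (SE) with an interval from -1.54 to -0.79 and an adjusted p of 0.0343 in limma. The call was kept without SW480-45 replicate 1 (adjusted p = 0.0165, limma). It was lost at adjusted p = 0.0861 and 0.0908 when SW480-45 replicate 2 or 3 was left out, and at 0.134, 0.106 and 0.0687 when SW480-NC replicate 1, 2 or 3 was. FOSL1 is among the genes that the study selected from these same libraries, so its fall here is not independent evidence.

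EGR1 is induced by the same cascade, and its protein binds GC-rich promoters. Its gene lies at chr5:138465490-138469315 on the plus strand, just after the CArG boxes printed above. EGR1 had 3005, 2922 and 3256 normalized counts in SW480-45 replicates 1, 2 and 3 and 1923, 1651 and 1849 in SW480-NC replicates 1, 2 and 3. All SW480-45 libraries were above all SW480-NC libraries, and the replicates of each line lay close together. The means were 3061 ± 174 and 1807 ± 141 (SD, n = 3), or 169% of the control level, with a log2 fold change of 0.76 ± 0.09 (SE), an interval from 0.56 to 0.96 and an adjusted p of 0.0159 in limma. This call was kept without SW480-NC replicate 3 (adjusted p = 0.0463, limma). Leaving out SW480-45 replicate 1, 2 or 3 gave adjusted p = 0.0721, 0.0535 and 0.0539, and leaving out SW480-NC replicate 1 or 2 gave 0.0580 and 0.0611. For EGR1 and for FOSL1 the two-sided exact permutation test gave p = 0.1, the smallest that 3 libraries against 3 allow.

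The other FOS proteins did not pass the test. FOS, the founding member and a classic serum response gene at chr14:75278774-75282230 (plus strand), had 836, 739 and 921 normalized counts in SW480-45 and 731, 760 and 646 in SW480-NC. Means were 832 ± 91.4 and 712 ± 59.4 (SD, n = 3), and the lines overlapped between 739 and 760. The log2 fold change of 0.22 ± 0.12 (SE) had an interval from -0.05 to 0.49 (adjusted p = 0.394, limma), so a rise of the size seen for EGR1 was outside the interval of FOS.

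FOSB, an inducible FOS protein with transactivation domains, lies at chr19:45467995-45475179 (plus strand) and was the lowest member. It had 151, 185 and 171 normalized counts in SW480-45 and 189, 146 and 113 in SW480-NC, with the smallest value resting on 107 reads. SW480-NC spanned the whole range of SW480-45, and the log2 fold change was 0.20 ± 0.20 (SE, n = 3 per line, adjusted p = 0.666 in limma), with an interval from -0.27 to 0.67.

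FOSL2 encodes FRA-2, the closest relative of FRA-1 and like it without a strong transactivation domain. Its gene lies at chr2:28392448-28417312 (plus strand). It had 672, 1626 and 1603 normalized counts in SW480-45 and 803, 448 and 1694 in SW480-NC. High and low libraries occurred in both lines, at replicates 2 and 3 of SW480-45 and at replicate 3 of SW480-NC. The log2 fold change of 0.51 ± 0.51 (SE) had an interval from -0.68 to 1.69 and an adjusted p of 0.662 in limma, so a 2-fold rise of FOSL2 lay within what these libraries allow.

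JUN, the partner shared by FOS proteins and a target of JNK, lies at chr1:58780788-58784327 (minus strand) and is a gene without introns. It had 2383, 2307 and 1695 normalized counts in SW480-45 and 3236, 2757 and 2239 in SW480-NC. The lowest control library fell inside the range of SW480-45. Means were 2128 ± 377 and 2744 ± 499 (SD, n = 3), with a log2 fold change of -0.37 ± 0.17 (SE), an interval from -0.77 to 0.03 and an adjusted p of 0.341 in limma.

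JUNB, a weaker activator than JUN and an inhibitor of it in many settings, lies at chr19:12791496-12793315 (plus strand). It had 779, 737 and 452 normalized counts in SW480-45 and 993, 611 and 470 in SW480-NC. Its gene overlaps HOOK2 on the opposite strand, and since the sources used here do not state a stranded count, reads of the overlap cannot be told apart. The ranges of the lines overlapped and the log2 fold change was -0.04 ± 0.30 (SE, adjusted p = 0.960 in limma). This difference had no stable direction, being 0.20 without SW480-45 replicate 3 and 0.25 without SW480-NC replicate 1.

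JUND, the JUN protein that is made in resting cells as well, lies at chr19:18279760-18281622 (minus strand). It had 377, 428 and 306 normalized counts in SW480-45 and 451, 358 and 227 in SW480-NC. Both the highest and the lowest library were from SW480-NC, and the log2 fold change of 0.14 ± 0.25 (SE, adjusted p = 0.816 in limma) turned to -0.13 without SW480-NC replicate 3.

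IER2 lies at chr19:13150415-13154908 (plus strand) and overlaps AC011446.2 on the opposite strand. It had 356, 329 and 1236 normalized counts in SW480-45 and 547, 323 and 1082 in SW480-NC. Replicate 3 was by far the highest library in both lines. The log2 fold change was -0.13 ± 0.58 (SE, adjusted p = 0.935 in limma), and it was 0.15, 0.20 and 0.32 without SW480-45 replicate 1, SW480-45 replicate 2 and SW480-NC replicate 3.

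MYC, which pairs with MAX to drive genes of ribosome production and metabolism, lies at chr8:127735434-127741434 (plus strand). It had 1979, 8721 and 7177 normalized counts in SW480-45 and 11556, 2145 and 7767 in SW480-NC. Each line had 1 library far below its other 2, namely replicate 1 of SW480-45 and replicate 2 of SW480-NC. The log2 fold change was -0.21 ± 0.72 (SE) with an interval from -1.89 to 1.47 (adjusted p = 0.912, limma). It became 0.45 when SW480-45 replicate 1 was left out, and 0.29 and 0.0018 when SW480-NC replicate 1 or 3 was.

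**Figure D2:**
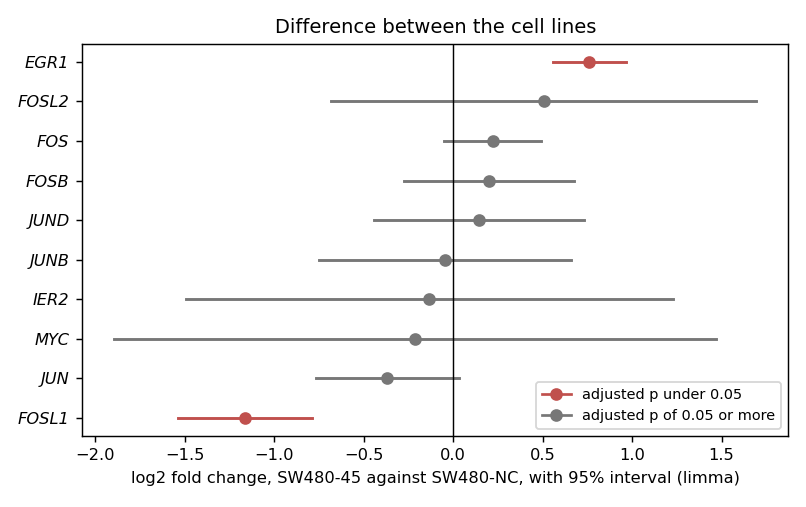
Log2 fold change of SW480-45 against SW480-NC (x axis) for the 10 members, with points at the limma estimate from 3 libraries per line and bars for its 95% interval. EGR1 at 0.76 and FOSL1 at -1.16, in red, passed the adjusted test, and the intervals of FOSL2, IER2 and MYC are the widest.

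The spread between replicates differed widely among the members. Among 10145 features that averaged 300 normalized counts or more, 133 or 1.31% ranged over more than 2-fold within both lines, and MYC, IER2 and FOSL2 were 3 of them. The highest MYC library exceeded the lowest 4.41-fold in SW480-45 and 5.39-fold in SW480-NC, while IER2 ranged 3.76-fold and 3.35-fold and FOSL2 2.42-fold and 3.78-fold. Their within-line SDs on the log2 scale were 1.22, 0.98 and 0.85, at percentiles 99.7, 99.4 and 99.01 of these features, whose median was 0.12. MYC and FOSL2 were lowest in the same libraries, SW480-45 replicate 1 and SW480-NC replicate 2, whereas IER2 was lowest in replicate 2 of both lines. EGR1, another immediate early gene, ranged only 1.11-fold and 1.16-fold, with an SD of 0.10 at percentile 37.3. FOSL1 had an SD of 0.24 at percentile 84.3, most of it from SW480-45, where it ranged 1.55-fold against 1.12-fold in SW480-NC. What moved MYC, IER2 and FOSL2 between libraries was not tested. The assembler loci of the table carry no coordinates, so it could not be checked whether a changing part of the reads of these genes was counted in another locus, which bears on their counts, ranges and ranks per kb.

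**Figure D3:**
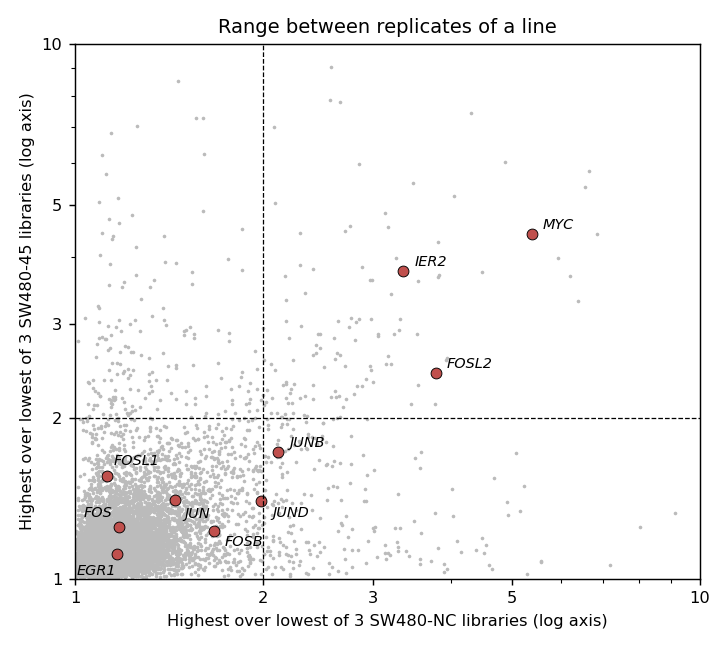
Highest over lowest of the 3 libraries of SW480-NC (x axis, log scale) and of SW480-45 (y axis, log scale), in grey for features that averaged 300 normalized counts or more and in red for the 10 members. Dashed lines mark 2-fold, features beyond 10-fold lie outside the axes, and MYC, IER2 and FOSL2 are the members past 2-fold in both lines.

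Levels of different genes were compared as normalized counts per kb of merged exons. In SW480-NC the order by mean was MYC (2385), FOSL1 (927), JUN (775), EGR1 (576), JUNB (380), FOS (220), IER2 (212), JUND (185), FOSL2 (137) and FOSB (26.9). The libraries of neighbours in this order overlapped except for JUN above EGR1, JUNB above FOS and FOSL2 above FOSB. In SW480-45 the order was MYC (1986), EGR1 (976), JUN (601), FOSL1 (420), JUNB (361), FOS (257), IER2 (208), JUND (199), FOSL2 (182) and FOSB (30.4), and only EGR1 above JUN and FOSL2 above FOSB did not overlap. EGR1 and FOSL1 had thus changed places. The ratio of EGR1 to FOSL1 per kb was 1.80, 2.72 and 2.69 in SW480-45 and 0.615, 0.593 and 0.657 in SW480-NC, given as a description, since it restates the separate tests.

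The makeup of the FOS family differed between the lines in the same description. FOSL1 made up 58.4%, 41.2% and 41.7% of the FOS family RNA per kb in SW480-45 and 72.8%, 73.3% and 66.3% in SW480-NC. Per kb of merged exons, FOSL1 was the most abundant FOS gene in every library of both lines. The order depends on this division by length. In normalized counts, FOSL2 and FOS both exceeded FOSL1 in SW480-45 replicates 2 and 3, and FOSL2 did so in SW480-NC replicate 3 (1694 against 1693). FOS itself made up 28.9% ± 1.71 in SW480-45 and 16.9% ± 2.35 in SW480-NC (SD, n = 3), FOSL2 20.6% ± 9.07 and 10.3% ± 6.42, and FOSB 3.44% ± 0.527 and 2.06% ± 0.501. Shares of a family depend on each other, so a lower FOSL1 share raises the rest. The FOS level was 257 per kb in SW480-45 and 220 in SW480-NC, and FOS did not pass the test (adjusted p = 0.394, limma). Summed over the family, the level per kb was 889 ± 50.9 in SW480-45 and 1311 ± 87.4 in SW480-NC. In the JUN family, JUN made up 52.0% ± 1.55 and 58.6% ± 4.46, JUNB 30.7% ± 2.57 and 27.7% ± 3.73, and JUND 17.3% ± 1.53 and 13.7% ± 1.43. The summed JUN family level per kb, 1161 ± 233 against 1340 ± 346, differed by less than its spread.

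Among 9370 genes with a symbol that averaged 50 normalized counts or more, those whose centred log2 profile over the 6 libraries lay closest to FOSL1 were EMP1, an epithelial membrane protein, CAV1, the main protein of caveolae, and MMP7, the metalloproteinase matrilysin. The root mean square differences were 0.072, 0.167 and 0.179 on the log2 scale, and their log2 fold changes were -1.06, -1.36 and -1.30. Closest to EGR1 were STEAP4, a metalloreductase, CTH, the enzyme cystathionine gamma-lyase, and SLC6A9, a glycine transporter. Their differences from EGR1 were 0.043, 0.062 and 0.069, with log2 fold changes of 0.72, 0.72 and 0.80. The profiles rest on 6 libraries in 2 lines, and the study had selected EMP1, CAV1 and MMP7 from them as well.

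Around the members, 7 lists of pathway genes were read in the same fit. Of 123 genes listed, 21 had no row of their own, 7 were below the filter and 95 were tested, of which none was higher and 5 were lower at an adjusted p under 0.05 in limma, beside 0.332% and 0.47% of all features. On recovered reads edgeR called 3 of the 95, all lower, beside 0.627% of all features in either direction. DESeq2 called 7 higher and 11 lower, beside 3.48% of all features in either direction. At an unadjusted p under 0.05, 20 were higher and 21 lower, beside 8.1% and 8.15% of all features. The median log2 fold change of the 95 was -0.01.

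Upstream of the members, no gene passed the adjusted test of limma or edgeR. DESeq2, which called 3.48% of all features, called RPS6KA4. Of 20 genes of the MAP kinase cascades, 9 were higher and 11 lower, with a median log2 fold change of -0.004. At an unadjusted p under 0.05 they were 3 and 3, beside 8.1% and 8.15% of all features. The extremes were MAPK10, the JNK isoform of neurons, at 1.17 ± 0.92 (SE, adjusted p = 0.575 in limma) and RPS6KA4, the kinase MSK2, at -0.38 ± 0.09 (adjusted p = 0.112). MAPK10 had only 0.966 to 34.3 normalized counts, with 1 read in its lowest library. MAPK14, the p38 kinase of the study's title and named after its values were seen, had 3012, 1056 and 2993 normalized counts in SW480-45 and 914, 1031 and 1368 in SW480-NC. The study reported lower phosphorylation of the p38 protein on knockdown, which RNA counts do not measure. The MAPK14 value of SW480-45 replicate 2 lay within the control range, and the log2 fold change was 0.96 ± 0.39 (adjusted p = 0.287 in limma). MAPK14 passed only in the fit without that library, which removes the SW480-45 value that was not raised, and in no other fit. Of 6 genes among SRF, its cofactors and the NAB corepressors, 1 was higher and 5 lower, with a median of -0.11, and 1 of each passed an unadjusted p under 0.05. NAB2, which represses EGR1 protein activity and is itself an EGR1 target, was at 0.46 ± 0.15 (adjusted p = 0.212) and its relative NAB1 at -0.33 ± 0.09 (adjusted p = 0.145).

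Beside the members, the 25 other immediate early genes tested had a median log2 fold change of 0.07, with 15 higher and 10 lower. None was called in limma after adjustment. At an unadjusted p under 0.05, 4 were higher and 3 lower, beside 8.1% and 8.15% of all features. Of these 25, edgeR called 0 and DESeq2 5, namely BTG2, NR4A1, KLF4, KLF10 and NFKBIZ, beside 3.48% of all features for DESeq2. GADD45B, a stress-induced regulator of MAP kinase signalling, had the largest positive value at 0.87 ± 0.24 (SE, adjusted p = 0.153), and KLF4, a factor of the differentiated gut epithelium, the largest negative one at -1.06 ± 0.37 (adjusted p = 0.226). Among other subunits of AP-1 dimers 6 were tested and all 6 were higher in SW480-45, with a median of 0.61. At an unadjusted p under 0.05, 4 of these 6 were higher, beside 8.1% of all features. None was called by limma or edgeR, and DESeq2, which called 3.48% of all features, called 3, namely ATF3, ATF4 and JDP2. BATF2 had the largest value, 1.59 ± 0.41 (adjusted p = 0.136), at only 6.76 to 41.5 normalized counts, and BATF3 the smallest, 0.08 ± 0.37. ATF4, the effector of the integrated stress response, at 0.41 ± 0.08 (adjusted p = 0.0803) and JDP2, a repressor that pairs with JUN, at 0.81 ± 0.17 (adjusted p = 0.0874) came closest to the threshold in limma. These 2 were named after their values were seen.

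The list of AP-1 target genes held most of the limma calls, but it was written with earlier results of these data known. Of 18 tested, 4 fell at an adjusted p under 0.05 in limma, beside 0.47% of all features, and none rose. In all, 13 were lower and 5 higher, with a median of -0.14. At an unadjusted p under 0.05, 8 were lower and 4 higher, beside 8.15% and 8.1% of all features. On recovered reads edgeR called MMP1 and SPP1, beside 0.627% of all features. DESeq2 called 7, MT2A as higher and the others as lower, beside 3.48% of all features. The 4 genes that limma called were MMP1, CXCL8, PTGS2 and SPP1. With all libraries, MMP1 and SPP1 were each called under 9 of 11 alternatives, CXCL8 under 7 and PTGS2 under 5. The alternatives are not independent of each other. The study had selected MMP1, MMP10, MMP13, CXCL8 and PTGS2 from the same libraries. Their direction, and their part in these counts, is therefore not independent evidence.

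MMP1, interstitial collagenase and a classic TGACTCA-driven gene, had 52.7, 86.7 and 79.1 normalized counts in SW480-45 and 295, 277 and 295 in SW480-NC. The lines stood far apart, with a log2 fold change of -2.00 ± 0.20 (SE, adjusted p = 0.01004 in limma), and of the 6 fits without a library the call was lost in the one without SW480-NC replicate 1 (adjusted p = 0.0644). CXCL8, the neutrophil chemokine interleukin-8 whose promoter is printed above, had 204, 247 and 287 in SW480-45 and 583, 520 and 430 in SW480-NC. Its log2 fold change was -1.05 ± 0.17 (adjusted p = 0.0435), and the call was lost in every one of the 6 fits without a library, where the adjusted p reached 0.165. The other 2 showed the same separation of the lines.

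PTGS2, the inducible cyclooxygenase COX-2, had 49.6, 48.8 and 61.2 normalized counts in SW480-45 and 114, 113 and 103 in SW480-NC. Its log2 fold change was -1.04 ± 0.17 (SE, adjusted p = 0.0481 in limma), and this call too was lost in all 6 fits without a library, with an adjusted p of up to 0.188. SPP1, the secreted matrix protein osteopontin, had 648, 623 and 710 in SW480-45 and 1315, 1045 and 1359 in SW480-NC, at -0.90 ± 0.12 (adjusted p = 0.0333). The SPP1 call was kept only without SW480-NC replicate 2, and otherwise the adjusted p rose to as much as 0.131. The largest positive value was that of MT2A, a metallothionein, at 0.65 ± 0.16 (adjusted p = 0.131).

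The promoters of these targets were also read for the AP-1 motif. Of the 18 tested, 12 were in the promoter table, and 4 of these held TGACTCA, namely PLAUR, CXCL8, EZR and MT2A. Of these 4, 3 were lower in SW480-45, with a median log2 fold change of -0.27, and of the 8 without the motif 6 were lower, with a median of -0.18. MMP1 had no entry. The counts are small and given as a description.

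The partners and targets of MYC were read in the same way. Of 9 genes of the MYC network 6 were higher and 3 lower, with a median log2 fold change of 0.26. At an unadjusted p under 0.05, 4 were higher, beside 8.1% of all features. None of the 9 was called by limma or edgeR, and DESeq2, which called 3.48% of all features, called MLX. MYCL, a MYC paralogue, was at 0.48 ± 0.12 (SE, adjusted p = 0.131 in limma) and MGA, a competitor of MYC for MAX, at -0.24 ± 0.13 (adjusted p = 0.422). Of 11 MYC target genes 9 were lower and 2 higher, with a median of -0.17. At an unadjusted p under 0.05, 6 were lower and none higher, beside 8.15% and 8.1% of all features. ODC1, which makes the first polyamine, was the one that passed after adjustment, with 29222, 30437 and 30577 normalized counts in SW480-45 and 40244, 42380 and 44910 in SW480-NC. All its SW480-45 libraries were lower, at -0.50 ± 0.06 (adjusted p = 0.0149 in limma), and the call was kept only without SW480-NC replicate 3, with an adjusted p of up to 0.0848 in the other fits without a library. APEX1, a DNA repair and redox factor that also acts on AP-1, had the largest positive value, 0.44 ± 0.34 (adjusted p = 0.571).

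**Figure D4:**
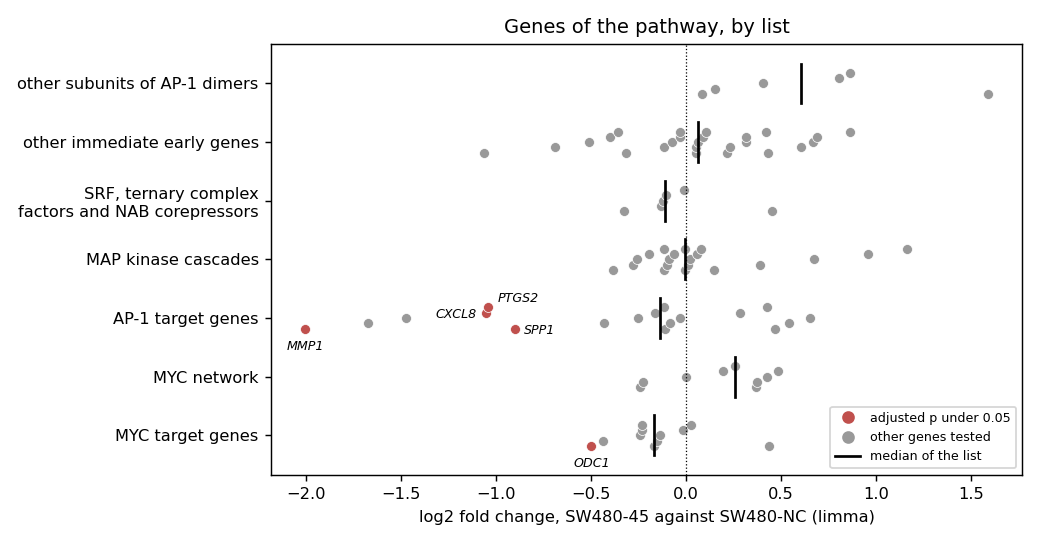
Log2 fold change of SW480-45 against SW480-NC (x axis, limma, 3 libraries per line) for the 95 genes tested in 7 lists (y axis), with a vertical bar at the median of each list. The 5 genes in red fell at an adjusted p under 0.05, 4 of them AP-1 target genes and 1 a MYC target gene, and none of the 7 lists holds a gene that rose past this threshold.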

How the data were processed

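Libraries made with the NEBNext Ultra kit were sequenced on an Illumina HiSeq instrument. The submitters' processing notes name bcl2fastq, HISAT2, DESeq2 and GRCh38, without versions, and the study's methods name Cuffdiff. The deposited table gives 1 signal for each feature and library, which is a read count scaled by the authors with a size factor. They cover 25927 Ensembl identifiers and 33265 assembler loci, and columns of per-sample values not used numbered 0. Dividing by the step of each library gave whole reads for 100% of values (tolerance 0.01).

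Members and lists were chosen with earlier results of these data known. The comparison used limma 3.58.1 (R 4.3.3, intensity trend) on log2(normalized count + 1), for features with a mean of at least 10, with Benjamini-Hochberg adjustment over 21703 features. Fold changes on this scale understate those of low genes. Alternatives on these reads were edgeR 4.0.16 and DESeq2 1.42.0. Steps were tested on simulated data. Genes named were the members, HPSE, the called genes and the largest positive and negative value of each list, and the 3 profiles nearest to FOSL1 and to EGR1. Exons and overlaps are from GENCODE 29. Each library was taken as 1 replicate because the study states 3 independent experiments per group. No library pair of a line agreed within counting noise, which by itself does not show independence.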

Additional observations from a re-analysis of the deposited data

How the results depend on the processing

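The fits used 17 alternatives. FOSL1 stayed lower in all of them, with a log2 fold change from -1.35 to -1.03, and EGR1 stayed higher. With all libraries both were called under 9 of 11 alternatives, the exceptions being the trend and the block. These alternatives are not independent of each other. Median-of-ratios rescaling gave the main fit again, with 174 features called. Without the intensity trend of limma, 11 features in place of 174, 0 of 10 members and 0 pathway genes in place of 5 were called (FOSL1 adjusted p = 0.126, EGR1 0.104). With the replicate number as a block, 12 features, 0 members and 0 pathway genes were called (limma, FOSL1 adjusted p = 0.0615, EGR1 0.0842). Over all features averaging 50 normalized counts or more, the deviations of same-numbered libraries correlated at -0.03, -0.10 and -0.01. That gave no sign of pairing across the features as a whole. A correlation over all features cannot tell whether single genes are paired, so the loss of both calls in this fit is left standing. Without one library at a time, 29 to 93 features, 0 to 1 members and 0 to 3 pathway genes were called, with KLF6 or MAPK14 higher in 1 fit each, the fewest features without SW480-NC replicate 1. Under 3 other filters on features, BTG2 was called higher. On recovered reads, edgeR called 136 features (0.627%) and 3 pathway genes. DESeq2 called 756 features (3.48%) and 18 pathway genes (7 higher, 11 lower). Of the features that DESeq2 called, 52.6% were higher in SW480-45, against 41.4% in limma. DESeq2 gave FOSL1 an adjusted p of 2.24e-08 and EGR1 1.53e-08. The count of members at 2-fold did not change.

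Signs turned in single fits without one library, for JUNB (0.20, 0.25, range -0.29 to 0.25), JUND (-0.13, range -0.13 to 0.36), IER2 (0.15, 0.20, 0.32, range -0.75 to 0.32) and MYC (0.45, 0.29, 0.0018, range -0.93 to 0.45), none of which passed the test in any fit. With 3 libraries per line, the intervals of FOSL2, IER2 and MYC include changes of 2-fold and more. Genes without a row of their own were not analysed here, and reads of overlapping genes cannot be told apart.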
